A study of Mus musculus with 8 samples.

Results

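Potassium channels of the kidney were followed in whole kidneys of Control and cKO mice. All protein-coding genes whose symbol begins with Kcn in GENCODE vM21 were taken, except Kcnj1 and Kcnma1. This gave 92 of the 46517 genes listed in the count files, in 17 families of pore-forming and accessory subunits. All 92 were listed in the files.

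The study compared 4 Control with 4 cKO mice, 1 library from the kidney of each animal. All 8 mice carried Xpr1 alleles with a floxed exon 2 (Xpr1lox/lox) and, starting when 8 weeks old, drank water with doxycycline (DOX, 2 mg/ml) for 2 weeks. Added in cKO animals were Pax8-rtTA, a DOX-dependent activator driven in the renal tubule, and LC1, which supplies Cre under its control. Control mice were littermates with the floxed alleles but without these transgenes, so that effects of rtTA and Cre cannot be told apart from effects of losing Xpr1. Xpr1 encodes a phosphate exporter. Its level was 80.2 to 126 CPM (read counts scaled to library size by TMM factors) in Control and 5.74 to 26.5 CPM in cKO libraries (log2 fold change -2.65, SE 0.44, adjusted p = 0.00491). RNA came from whole kidney, in which fewer cells of a type and less RNA per cell cannot be told apart.

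Potassium channels set the membrane voltage of nephron cells and return to the blood or the urine the potassium that the sodium pump and carriers bring in. Inward rectifiers (Kir, Kcnj genes) pass potassium best near the resting voltage and need no accessory voltage sensor. Tandem-pore-domain channels (K2P, Kcnk genes) carry background potassium current. Voltage-gated (Kv) channels open on depolarization and are built from pore-forming alpha subunits with beta subunits, KCNE subunits or channel-interacting proteins, while Slo, SK and IK channels respond to calcium, sodium, pH or voltage. In the nephron, a heteromer of the Kcnj10 and Kcnj16 products lies in the basolateral membrane of the distal tubule, and Kcnk5 and Kcnq1 with Kcne1 are known in the proximal tubule.

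Reads assigned to genes ran from 20366113 to 26155030 per library. Libraries differed in how they favoured short or long transcripts, seen as median log2 deviations from the mean of the Control libraries. Genes in the shortest sixth by exonic length lay at 0.93 in KO16 and 0.45 in KO20. In C11, KO18 and KO19 the same genes lay at -0.34, -0.24 and -0.12. Proximal tubule markers fell, 8 of 10, with a summed level of 8749 to 19228 CPM in Control and 2390.3 to 4747 CPM in cKO libraries. Of 10 markers of macrophages and other leukocytes, 5 rose. Their list summed to 99 to 109.6 CPM in Control and 211 to 729.5 CPM in cKO libraries. Of that sum, Lyz2 alone held 14.5 to 49.0 CPM in Control and 96.7 to 592 CPM in cKO libraries. Among fibroblast markers, 2 of 6 rose (121 to 190.5 against 289.6 to 426 CPM). None of 6 thick ascending limb, 5 distal convoluted tubule or 6 intercalated cell markers passed the test. Of 7 principal cell markers, 1 rose (Aqp2) and 1 fell (Aqp3). No gene of these marker lists was at 0 reads over all libraries. The part of cell makeup and of transcript length in the results that follow was not tested, except where a value with libraries left out is given.

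Of the 92 genes, 84 had at least 1 read and 45 passed the filter on low counts and were tested. Levels are given as TPM (counts divided by the exonic length of the gene and scaled to the same sum in each library), the scale on which genes can be set beside each other. At a mean of at least 1 TPM over the 8 libraries, 24 genes were called expressed. Another 21 passed the filter below that level, 39 had reads but did not pass the filter, and 8 had no read in any library. Those 8 were Kcna10, Kcnj6, Kcnk9, Kcnk12, Kcnk16, Kcnk18, Kcns2 and Kcnv1. A count of 0 over the 8 libraries allows a level of up to 0.0153 CPM in counting error. Just inside the 1 TPM limit lay Kcnk6 at 1.11 TPM and Kcnt2 at 1.16 TPM, and just outside it lay Kcnab3 at 0.982 TPM and Kcnmb1 at 0.94 TPM.

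Expression was concentrated in few genes. The 12 genes of highest mean level held 96.3% of the summed mean TPM of all 92. Kcnj16 stood highest at a mean of 362 TPM and ran from 216 to 596 TPM over single libraries. Kcnj15 followed at 243 TPM, with a range of 45.9 to 561 TPM that overlapped that of Kcnj16. This order is that of the mean over both groups. Kcnj15 stood above Kcnj16 in every Control library (ratio 1.01 to 1.18) and below it in every cKO library (0.212 to 0.364). Kcnk1 at 99.6 TPM and Kcnk5 at 74.2 TPM, both K2P channels, came next. Their ranges over single libraries of both groups, 34.8 to 197 TPM for Kcnk1 and 22.6 to 152 TPM for Kcnk5, overlapped. The order of these neighbours differed between the groups, with Kcnk5 higher in every Control library and Kcnk1 higher in every cKO library. Kcnj10, a partner of Kcnj16 in the distal tubule, had a mean of 18.2 TPM and ran from 4.36 to 34.7 TPM. Kcnj8, a pore subunit of ATP-sensitive channels, had a mean of 10.5 TPM. Kcne1 at 8.83 TPM and Kcnq1 at 8.77 TPM, accessory and pore subunit of the same channel, were next to each other in the order. Kcne4, Kcnt1 and Kcnj13, also among the 12, had means of 4.08, 3.97 and 2.38 TPM.

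**Figure D1:**
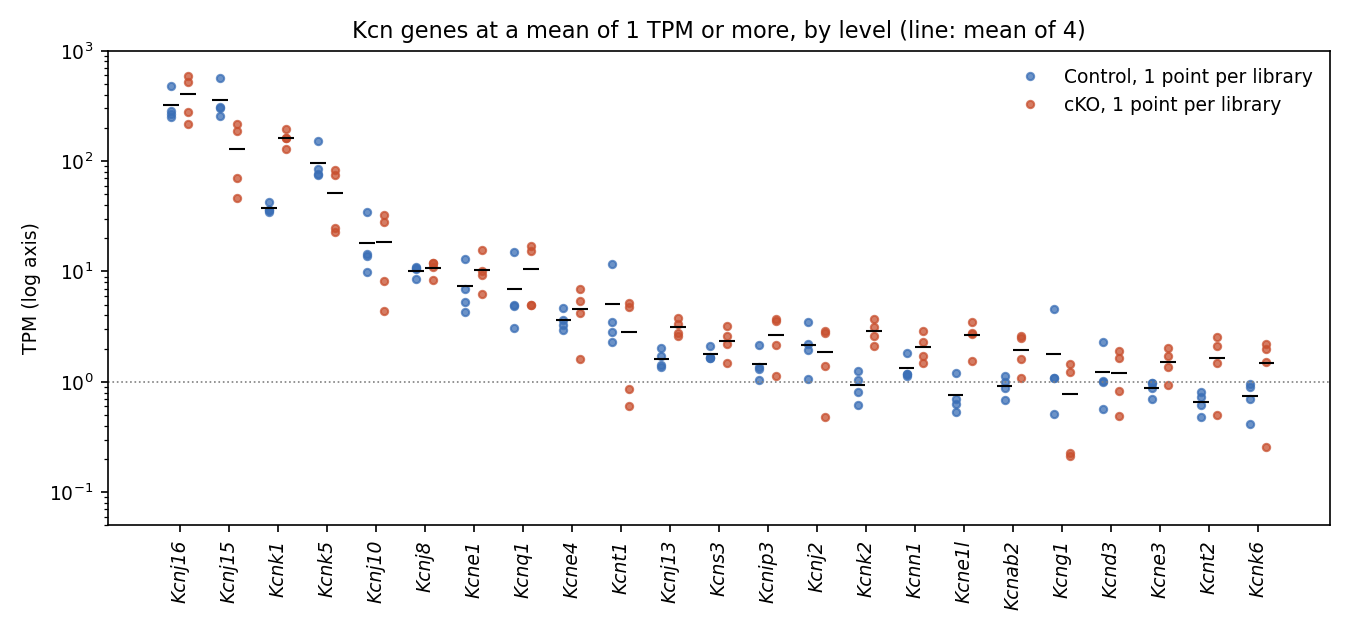
Level of 23 of the 24 expressed potassium channel genes in each library, in TPM on a log axis, ordered by the mean over the 8 libraries, with 1 point per library, a line at the mean of each group, colour marking Control and cKO, and a dotted line at 1 TPM. Kcnj16 and Kcnj15 lie highest, at means of 362 and 243 TPM, and the Kcnk1 points of the 2 groups stand apart.

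By family, the expressed genes included 6 of 14 Kir genes, 4 of 14 K2P genes, 4 of 5 KCNE genes, both Slo2 genes, 2 of 10 silent Kv modifier genes, and 1 each of the KCNQ, Kv beta, Kv4 channel-interacting, SK and IK, and Kv4 families. No gene of the Kv1 or the EAG, ERG and ELK families reached 1 TPM, and none of the 4 accessory subunits of the BK channel did. Of the 8 Kv1 genes, Kcna2, Kcna5 and Kcna6 passed the filter, at 0.0984, 0.532 and 0.341 TPM. Of the 8 EAG, ERG and ELK genes only Kcnh2, at 0.66 TPM, and Kcnh1, at 0.33 TPM, passed it. The number of members at 1 TPM or more differed between libraries and was 17 to 22 in Control and 17 to 31 in cKO libraries. It was highest in KO18 with 31 and KO19 with 30.

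The comparison of cKO with Control addressed which channel genes differ after Xpr1 is deleted along the nephron. Of the 45 tested genes, 8 passed an adjusted p of 0.05 (17.8%), beside 14.1% of all 15382 genes tested. Higher in cKO kidneys were 5 (11.1%, beside 7.5% of all genes tested), namely Kcnu1, Kcnk1, Kcne1l, Kcnip2 and Kcnk2. Lower were 3 (6.67%, beside 6.61%), namely Kcnj15, Kcnj12 and Kcnk5. The other 37 did not pass, and 13 genes in all had an unadjusted p below 0.05. The ranges of the groups did not overlap for 11 tested genes (24.4%, beside 22.8% of all genes tested), 8 of them higher in cKO and 3 lower. The median log2 fold change was 0.20 over the 45 genes and 0.01 over all genes tested. The share that fell was close to that of all genes. Leaving out C13 reduced the genes higher in cKO to 2, and leaving out C14 reduced them to 3, while DESeq2 called 5 lower. With KO16, KO20 and C11 all left out, 17 were higher and 4 lower, in a fit that called 57.8% of all genes tested. The p-values measure the spread between these libraries, which the labels name only as separate animals.

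**Figure D2:**
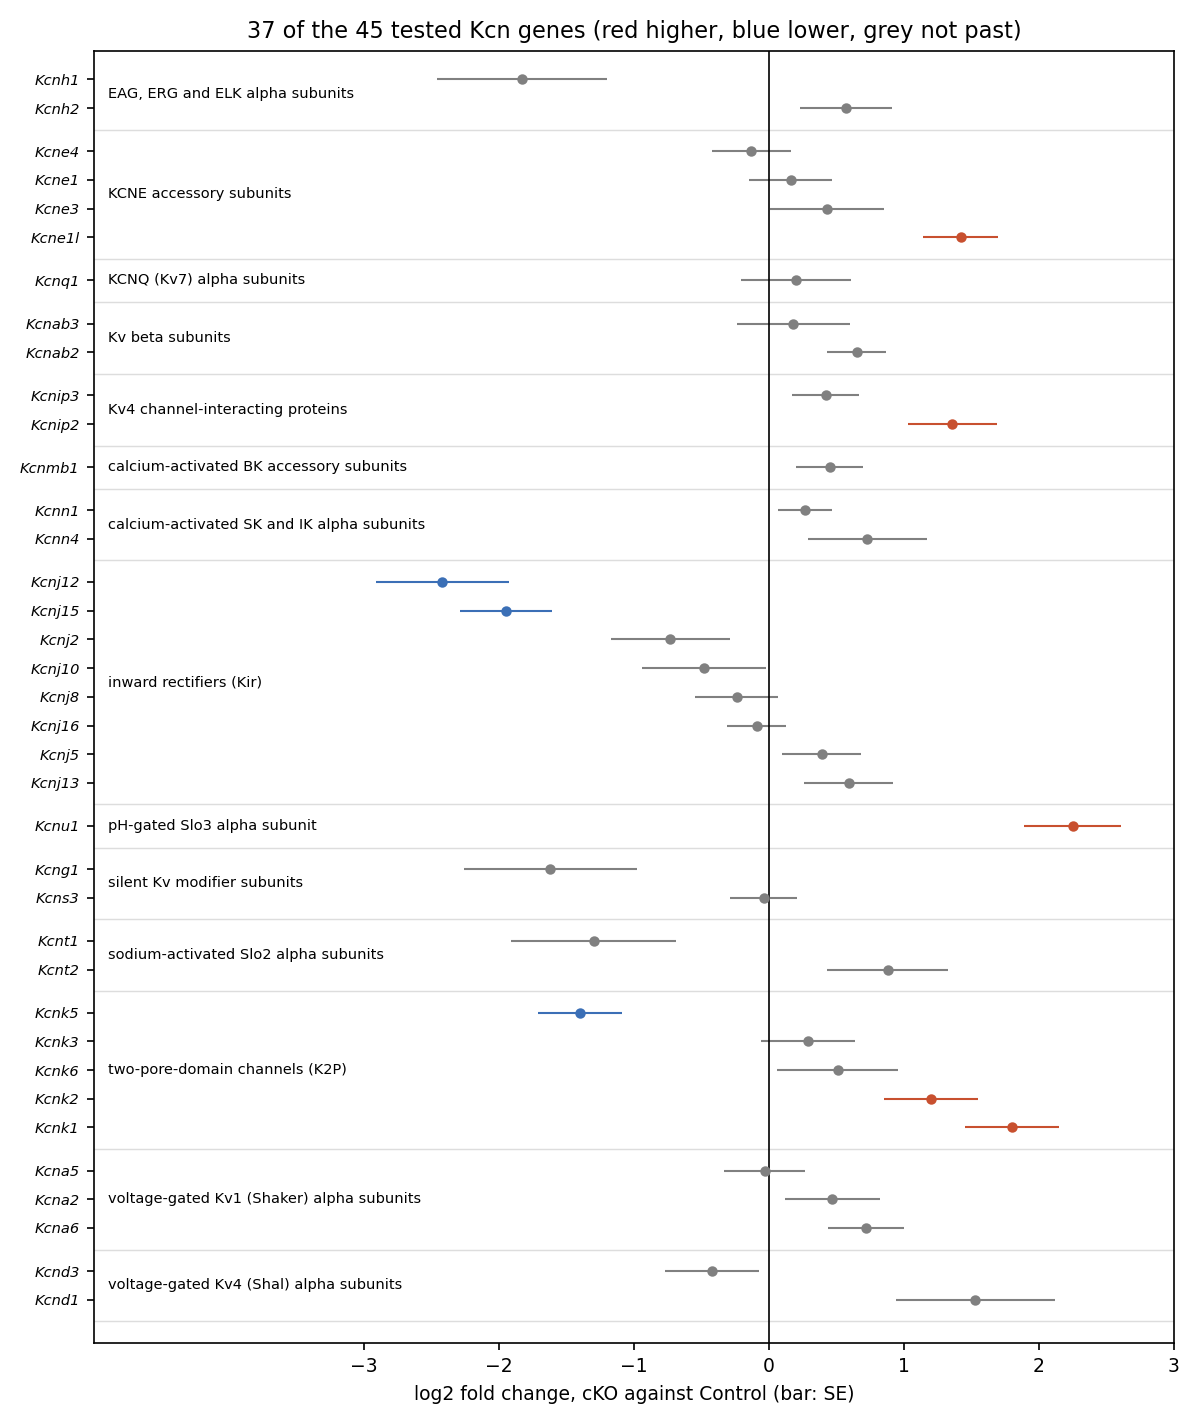
Log2 fold change (cKO minus Control) of 37 of the 45 tested potassium channel genes with its standard error, grouped by channel family, with genes past an adjusted p of 0.05 in red (higher) or blue (lower) and the others in grey. The 8 coloured genes lie in the Kir, K2P, KCNE, Kv4 channel-interacting and Slo3 families, at values from -2.42 to 2.25.

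Among the inward rectifiers, Kcnj15 and Kcnj12 fell, and the other 6 tested genes did not pass the test. Kcnj15 (ENSMUSG00000062609, GRCm38 chr16:95257558-95300260, plus strand) encodes Kir4.2, a pore-forming subunit of the proximal tubule's basolateral membrane. Its level was 949.7, 1385, 1033 and 1022 CPM in the Control libraries C10, C11, C13 and C14, and 159, 434, 344 and 201 CPM in the cKO libraries KO16, KO18, KO19 and KO20. Every cKO library lay below every Control library, and KO16 and KO20 were lowest. The means were 1097 ± 195 CPM in Control and 285 ± 127 CPM in cKO (SD, n = 4 each). The log2 fold change was -1.95 (SE 0.34, adjusted p = 0.00639 in edgeR's quasi-likelihood test). It was -1.50 without KO16 and KO20, and -1.40 when C11 was left out as well. An antisense gene, Gm49643, overlaps 5.27% of its exonic bases. Of the proximal tubule markers, 8 of 10 also fell, at a list median of -1.83 in log2 fold change. Whether the fall of Kcnj15 is tied to theirs was not tested.

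Kcnj12 (ENSMUSG00000042529, chr11:61022564-61071131, plus strand) encodes Kir2.2, a strong inward rectifier known from muscle. Control libraries had 30, 41, 18 and 35 reads, and cKO libraries 1, 14, 8 and 5, or 1.45, 1.64, 0.782 and 1.55 CPM against 0.0531, 0.448, 0.242 and 0.211 CPM. The groups did not overlap. The log2 fold change was -2.42 (SE 0.49, adjusted p = 0.0113), on a level that reached a mean of only 0.628 TPM. Only 1 of 4 cKO libraries reached the minimum count of the filter, so this gene was tested through its Control libraries.

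Kcnj16 and Kcnj10, which encode Kir5.1 and Kir4.1 of the distal basolateral channel, did not pass the test. Kcnj16 measured 585, 734, 591 and 568 CPM in Control and 468, 745, 606 and 504 CPM in cKO libraries. The groups overlapped almost wholly, and the log2 fold change was -0.09 (SE 0.22, adjusted p = 0.839). Kcnj10 measured 31.1, 73.4, 40.1 and 41.6 CPM in Control and 13, 55.7, 44.7 and 20.3 CPM in cKO libraries, and the log2 fold change was -0.48 (adjusted p = 0.569). C11 was the highest Control library for both genes, and KO16 and KO20 were the lowest cKO libraries. Without KO16 and KO20 the log2 fold change of Kcnj16 was 0.12 and that of Kcnj10 was 0.10, so neither kept its sign. The sign of Kcnj16 also turned with upper-quartile scaling, to 0.04, and with scaling by library totals, to 0.26.

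The 2 Kir genes of highest level thus stood in a different proportion in the groups. The ratio of Kcnj15 to Kcnj16 in TPM was 1.01, 1.18, 1.09 and 1.12 in Control and 0.212, 0.364, 0.354 and 0.249 in cKO libraries. Both values come from the same library, so the scaling between libraries cancels. A lean of a library toward short or long transcripts does not cancel, as Kcnj15 has 6313 and Kcnj16 3936 exonic bases. KO16 and KO20, which favoured short transcripts, had the lowest ratios, and the part of length in them was not tested. The ratio was 1.1 ± 0.0683 in Control and 0.295 ± 0.0756 in cKO (SD, n = 4), without overlap. The ratio of Kcnj10 to Kcnj16 was 0.0535 ± 0.0142 and 0.0394 ± 0.0173, with overlap. Summed over all Kir genes, the level was 1589.6, 2213, 1692 and 1652 CPM in Control and 664, 1251, 1012 and 745 CPM in cKO libraries, without overlap on this scale, and Kcnj15 and Kcnj16 held most of it. Per length, the Kir sums overlapped, at 535 to 1091 TPM in Control and 283 to 862 TPM in cKO libraries.

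**Figure D3:**
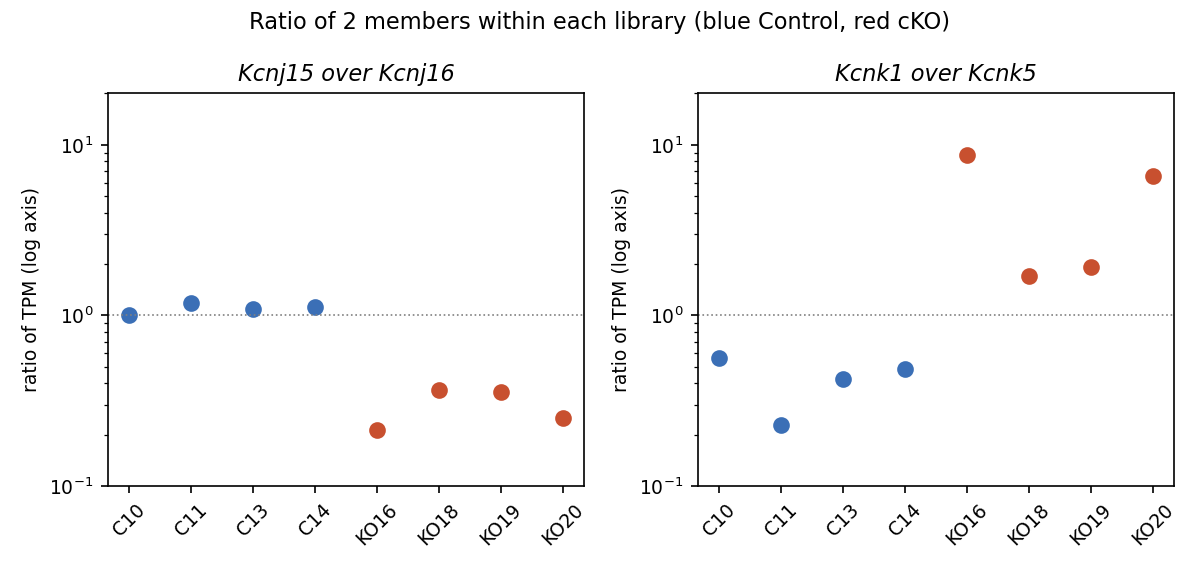
Ratio of the TPM of paired potassium channel genes in each library, on a log axis, with 1 point per library in Control and cKO. Kcnj15 to Kcnj16 lies at 1.01 to 1.18 in Control and 0.212 to 0.364 in cKO, and Kcnk1 to Kcnk5 at 0.229 to 0.559 and 1.71 to 8.72.

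The remaining tested Kir genes lay at lower levels. Kcnj8 measured 13.3 ± 2.63 CPM in Control and 11.3 ± 4.43 CPM in cKO (log2 fold change -0.24, adjusted p = 0.68). Kcnj2, encoding Kir2.1 and lying 38195 bases from Kcnj16 on chromosome 11, measured 5.97 ± 2.88 and 3.57 ± 1.56 CPM (log2 fold change -0.73, adjusted p = 0.323). These neighbours differ widely in level, 362 TPM for Kcnj16 and 2.03 TPM for Kcnj2. Kcnj13, which encodes Kir7.1, measured 1.06 ± 0.298 and 1.61 ± 0.539 CPM (log2 fold change 0.59, adjusted p = 0.289). Of its exonic bases 49.1% overlap Gigyf2 on the opposite strand, and as the strand setting of the counting is not given, reads of the 2 genes cannot be told apart there. For Kcnj5 the log2 fold change was 0.39 (adjusted p = 0.443).

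Among the K2P channels, Kcnk1 and Kcnk2 rose and Kcnk5 fell, while Kcnk3 and Kcnk6 did not pass the test. Kcnk1 (ENSMUSG00000033998, chr8:125995170-126030685, plus strand) encodes TWIK-1, a weakly inward-rectifying background channel found along the distal nephron and in proximal cells. It measured 55.5, 30.4, 42.9 and 43.8 CPM in Control and 242, 91.3, 105 and 164 CPM in cKO libraries. All cKO libraries lay above all Control libraries, with KO16 and KO20 highest. The means were 43.1 ± 10.3 and 151 ± 68.6 CPM (SD, n = 4 each), and the log2 fold change was 1.80 (SE 0.35, adjusted p = 0.00902). It was smaller, at 1.18, without KO16 and KO20, the libraries that favoured short transcripts. These libraries also had the highest summed leukocyte markers, at 729.5 and 526 CPM, of which Lyz2 alone held 592 and 392 CPM. Without C11 as well the log2 fold change of Kcnk1 was 1.02, and Kcnk1 passed the test in both cases. The antisense gene Gm45875 overlaps 8.01% of its exonic bases.

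Kcnk5 (ENSMUSG00000023243, chr14:20140057-20181809, minus strand) encodes TASK-2, an alkali-activated channel of the proximal tubule's basolateral membrane known for its part in bicarbonate reabsorption. It measured 151, 202, 154 and 138 CPM in Control and 42.3, 81.2, 83.3 and 38.0 CPM in cKO libraries. The groups did not overlap, and KO16 and KO20 were lowest. The log2 fold change was -1.40 (SE 0.31, adjusted p = 0.0167). With scaling by library totals alone the value was -1.02 and the adjusted p was 0.0925, so the call did not hold there, and without KO16 and KO20 the value was -0.98. The ratio of Kcnk1 to Kcnk5 in TPM was 0.559, 0.229, 0.423 and 0.484 in Control and 8.72, 1.71, 1.93 and 6.56 in cKO libraries, so Kcnk5 stood above Kcnk1 in every Control library and below it in every cKO library. Kcnk1 has 2235 and Kcnk5 3404 exonic bases, and this ratio was highest in KO16 and KO20. The part of transcript length in it was not tested. Summed over the K2P family, the level was 209.7 ± 20.7 CPM in Control and 222 ± 49.6 CPM in cKO, with overlapping ranges. Per length it was 114 to 189 TPM in Control and 192 to 251 TPM in cKO libraries, without overlap.

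Kcnk2 (ENSMUSG00000037624, chr1:189207930-189402273, minus strand) encodes TREK-1, a channel opened by membrane stretch and lipids. It measured 3.62, 1.2, 2.13 and 2.75 CPM in Control and 5.74, 4.06, 5.39 and 7.04 CPM in cKO libraries, without overlap, and rose (1.2 ± 0.35 SE on the log2 scale, adjusted p = 0.0485). This call lay at the threshold and was lost when C11, C13, C14, KO16, KO19 or KO20 was left out, at adjusted p = 0.0652 to 0.144, with RLE scaling (0.0509) and without the filter on low counts (0.0658). Without KO16 and KO20 its value was 0.96 with an adjusted p of 0.151. A430027H14Rik overlaps 12.2% of its exonic bases on the opposite strand and had 3 reads in Control and 14 reads in cKO libraries in all. The log2 fold changes of Kcnk6 and Kcnk3 were 0.51 (adjusted p = 0.52) and 0.29 (adjusted p = 0.66).

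**Figure D4:**
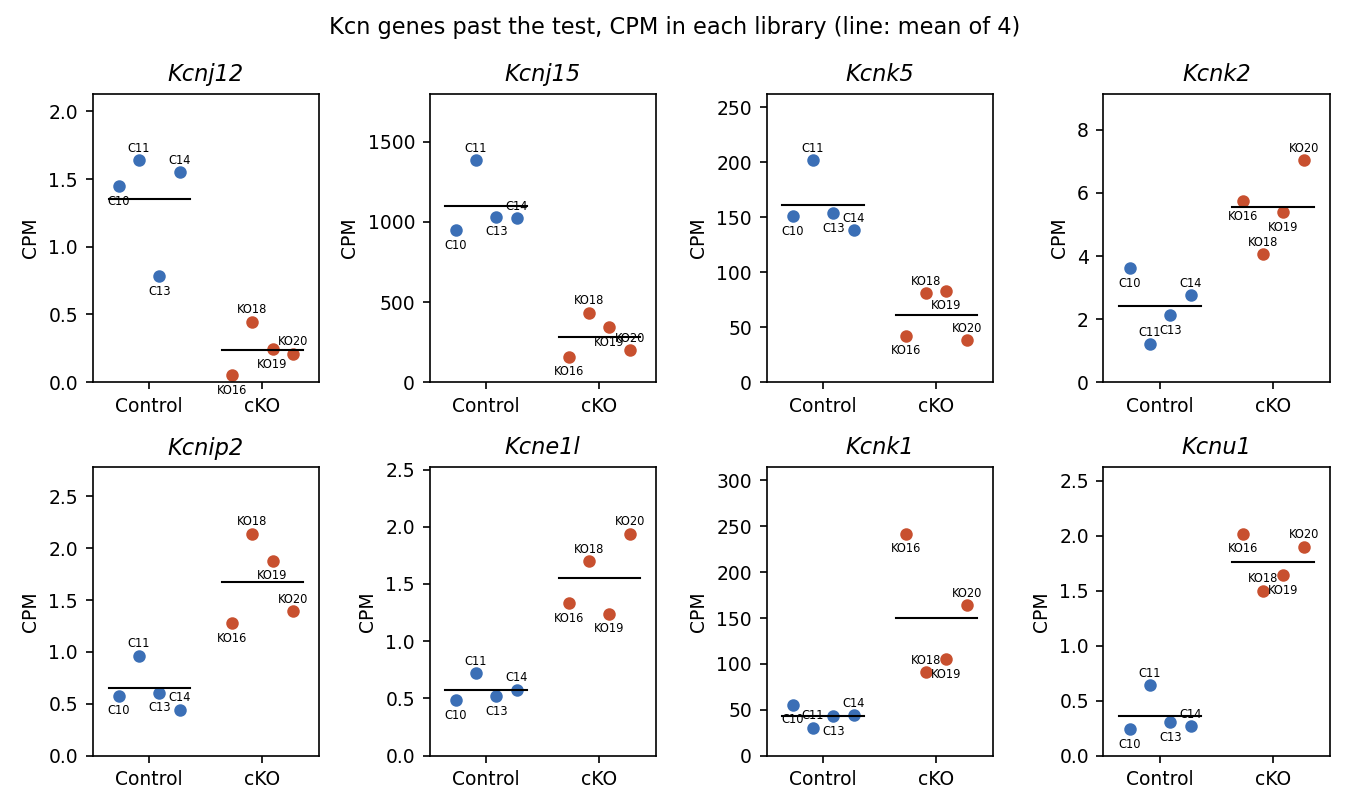
Level of the 8 potassium channel genes past an adjusted p of 0.05, in CPM on a linear axis that starts at 0, with 1 labelled point per library and a line at the mean of the 4 libraries of each group. In each panel the 4 cKO libraries lie wholly above or wholly below the 4 Control libraries. For Kcnj15 they lie at 159 to 434 CPM, below 949.7 to 1385 CPM.

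Of the other 3 genes past the threshold, Kcnu1 and Kcnip2 lay under 1 TPM, and Kcne1l had a mean of 1.7 TPM. Kcnu1 (ENSMUSG00000031576, chr8:25849623-25937939, plus strand) encodes Slo3, a pH-gated channel known from sperm. It had 5, 16, 7 and 6 reads in Control and 38, 47, 54 and 45 reads in cKO libraries, or 0.363 ± 0.187 and 1.76 ± 0.236 CPM. The log2 fold change was 2.25 (SE 0.36, adjusted p = 0.00413), the highest of the 45 tested genes, and C11 was the highest Control library. Only 1 of 4 Control libraries reached the filter's minimum count, so Kcnu1 was tested through its cKO libraries. Its mean level was 0.712 TPM.

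Kcne1l (ENSMUSG00000090122, chrX:142304752-142306294, minus strand), also known as Kcne5, encodes an accessory subunit of the KCNE family that acts on KCNQ channels. It measured 0.482, 0.722, 0.522 and 0.576 CPM in Control and 1.33, 1.70, 1.24 and 1.94 CPM in cKO libraries, without overlap. It rose (1.42 ± 0.28 SE on the log2 scale, adjusted p = 0.0109). The adjusted p was 0.0518 without C13 and 0.0646 when a trend with transcript length was removed from each library. Kcnip2 (ENSMUSG00000025221, chr19:45791839-45816061, minus strand) encodes a calcium-binding protein of the Kv4 channel complex. It measured 0.579, 0.963, 0.608 and 0.443 CPM in Control and 1.28, 2.14, 1.88 and 1.39 CPM in cKO libraries, without overlap, and rose (1.36 ± 0.33 SE on the log2 scale, adjusted p = 0.0239). Leaving out C10, C13, C14, KO18 or KO19 ended this call, at adjusted p = 0.0568 to 0.0896.

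The tested pore-forming partners of Kcne1l and Kcnip2 did not pass with all 8 libraries. Kcnq1, the only KCNQ gene that was tested, measured 7.43, 24.1, 10.8 and 10.8 CPM in Control and 11.2, 22.0, 18.3 and 9.28 CPM in cKO libraries. The groups overlapped (log2 fold change 0.20, adjusted p = 0.813), with C11, KO18 and KO19 high. Its sign turned when C10 or KO18 was left out, to -0.01 and -0.04. Without KO16, KO20 and C11 the log2 fold change was 1.02 and passed (adjusted p = 0.000788). That fit leaves out the highest Control value and the lowest pair of cKO values of Kcnq1, which by itself raises the estimate. It called 57.8% of all genes tested. Of the Kv4 genes, Kcnd3 differed by -0.42 (adjusted p = 0.50) and Kcnd1 by 1.53 on the log2 scale (adjusted p = 0.127), and Kcnd2 was below the filter. Kcnd1 passed with the length trend removed (1.57, adjusted p = 0.0492). It also passed without KO16 and KO20, its lowest cKO libraries (2.12, adjusted p = 0.0269). Only 1 of 4 Control libraries reached the filter's minimum count, so Kcnd1 was tested through its cKO libraries. The other KCNE genes also did not pass. Kcne1 measured 11.4 ± 3.76 and 12.7 ± 3.88 CPM (log2 fold change 0.16, adjusted p = 0.794), and its ratio to Kcnq1 in TPM was 1.18 ± 0.251 in Control and 1.17 ± 0.516 in cKO. Kcne4 measured 4.82 ± 0.483 and 4.38 ± 1.5 CPM (log2 fold change -0.13, adjusted p = 0.819), and for Kcne3 the log2 fold change was 0.43 (adjusted p = 0.566). Kcnip3, another Kv4 channel-interacting protein, differed by 0.42 on the log2 scale (adjusted p = 0.333).

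Kcnab2 and Kcnh1 lay between an adjusted p of 0.05 and 0.1. Kcnab2 encodes a cytoplasmic Kv beta subunit with an oxidoreductase fold. It measured 2.22, 2.45, 2.96 and 2.66 CPM in Control and 3.35, 4.58, 4.12 and 4.05 CPM in cKO libraries. Every cKO library lay above every Control library, and the log2 fold change was 0.65 (SE 0.22, adjusted p = 0.0829). Kcnh1 encodes the EAG1 voltage-gated channel. It measured 0.916, 2.85, 1.96 and 0.798 CPM in Control and 0.159, 0.80, 0.667 and 0.127 CPM in cKO libraries, with KO18 just above C14, and the log2 fold change was -1.83 (SE 0.63, adjusted p = 0.0924). DESeq2 called both, and Kcng1 as well.

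Kcng1 and Kcnt1 differed widely between mice of the same group. Kcnt1 encodes Slack, a sodium-activated channel. It measured 12.7, 43.6, 14.3 and 18.0 CPM in Control and 3.14, 15.8, 13.1 and 3.75 CPM in cKO libraries (log2 fold change -1.30, SE 0.61, adjusted p = 0.205). C11 was far the highest Control library, and KO18 and KO19 lay above KO16 and KO20. Kcng1, a silent Kv modifier, likewise had C11 highest in Control and KO16 and KO20 as the lowest pair in cKO. It measured 1.35, 7.98, 2.61 and 2.66 CPM in Control and 0.531, 1.76, 1.91 and 0.464 CPM in cKO (log2 fold change -1.62, adjusted p = 0.138).

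This order, C11 highest in Control and KO16 and KO20 the lowest pair in cKO, was shared by 20 of the 45 tested genes (44.4%) and by 30.7% of all genes tested. Among the 20 were Kcnj15, Kcnj12, Kcnk5 and Kcnip2 of the genes past the threshold, and Kcnk1, Kcnk2, Kcnu1 and Kcne1l were not among them. The median exonic length was 4587 bases over the tested channel genes and 4152 bases over all genes tested. C11 favoured long transcripts, and KO16 and KO20 short ones. Whether transcript length set this order was not tested.

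In the remaining families, too, the tested genes did not pass. Of the SK and IK genes, Kcnn1 measured 3.01 ± 0.248 CPM in Control and 3.63 ± 0.223 CPM in cKO, without overlap, and the log2 fold change was 0.27 (adjusted p = 0.438). For the IK gene Kcnn4 the log2 fold change was 0.73 (adjusted p = 0.326). Kcnmb1, the smooth-muscle beta subunit of the BK channel, had 0.45 (adjusted p = 0.295). Kcnt2, the second Slo2 gene, had 0.88 (adjusted p = 0.25). In the Kv1 family, Kcna6 did not overlap between the groups and had 0.72 (adjusted p = 0.128), and Kcna5 had -0.03 (adjusted p = 0.963). Kcnh2, the ERG1 channel, had 0.57 (adjusted p = 0.317). Kcns3, a silent Kv modifier, was near the same level in both groups, at 2.90 ± 0.776 and 2.82 ± 0.297 CPM (log2 fold change -0.04, adjusted p = 0.942). Of Kcna6, 39.6% of the exonic bases overlap Gm26673 on the opposite strand, which had no reads. The folds of Kcna6, Kcnd1, Kcne3, Kcng1, Kcnj2, Kcnj5, Kcnk3, Kcnk6, Kcnn4 and Kcnt2 are given by choice after their values were seen.

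Among the genes below the filter, Kcnj14, Kcnk13, Kcnj4 and Kcnj3 are given for groups that did not overlap in CPM, chosen after their values were seen. Kcnj14 had 3, 0, 1 and 1 reads in Control and 9, 11, 8 and 10 reads in cKO libraries, and Kcnk13 had 4, 2, 2 and 2 against 6, 9, 8 and 13 reads. The CPM of Kcnj4 was higher and that of Kcnj3 lower in cKO, both on fewer reads. None of these was tested under the filter, and without it Kcnj14 and Kcnj4 passed.

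Genes that work beside these channels were followed in 5 lists. Of 11 tested genes of the sodium pump and its regulators, 2 rose and none fell, at a median log2 fold change of 0.70, beside 7.5% of all genes tested that rose and 6.61% that fell. The pump brings in the potassium that basolateral channels let out again. Both genes that rose encode FXYD regulators of the pump: Fxyd1 went from 3.40 ± 0.597 to 10.8 ± 6.31 CPM (log2 fold change 1.66, adjusted p = 0.0313), and Fxyd5 from 9.22 ± 0.556 to 23.1 ± 12.7 CPM (1.33, adjusted p = 0.0417). KO16 and KO20 were highest for both, at 17.4 and 14.9 CPM of Fxyd1 and 39.7 and 26.3 CPM of Fxyd5. Without these libraries the log2 values were 0.66 (adjusted p = 0.0822) and 0.52 (adjusted p = 0.0745), and neither gene passed. None of the 7 cation-chloride carrier genes passed (median -0.49). Among them, Slc12a7 differed by -1.37 on the log2 scale (adjusted p = 0.16). None of the 12 genes of the WNK pathway, which regulates those carriers, passed either (median -0.26); Stk39 had 0.61 (adjusted p = 0.07) and Klhl3 had -0.90 (adjusted p = 0.303). The only proton-potassium pump gene tested, Atp4a, had 0.15 (adjusted p = 0.818). Of 7 tested channel partners outside the Kcn symbols, Lrrc26, an accessory subunit of the BK channel, rose from 0.157 ± 0.0894 to 0.71 ± 0.329 CPM (log2 fold change 2.14, adjusted p = 0.0213). Lrrc26 had 4, 2, 2 and 6 reads in Control and 22, 15, 24 and 11 reads in cKO libraries. No Control library reached the filter's minimum count, so Lrrc26 was tested through its cKO libraries. Tmem175, a potassium and proton channel of lysosomes, fell from 34.8 ± 6.63 to 16.7 ± 3.24 CPM (-1.06, adjusted p = 0.0151). The other 5 did not pass.

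The stretch just before the start of transcription is shown for 4 genes past the threshold, because the pair that fell at high level differ from each other in base composition, as do a pair that rose. Sequences are from RefSeq on GRCm38.p6, the 250 bases before the annotated start, 5′ to 3′ on the strand of the gene, with capitals marking a match to a searched motif. The windows are chr16:95257308-95257557 on the plus strand for Kcnj15, chr14:20181783-20182032 on the minus strand for Kcnk5, chr8:125994852-125995101 on the plus strand for Kcnk1, and chr19:45816064-45816313 on the minus strand for Kcnip2.
Kcnj15: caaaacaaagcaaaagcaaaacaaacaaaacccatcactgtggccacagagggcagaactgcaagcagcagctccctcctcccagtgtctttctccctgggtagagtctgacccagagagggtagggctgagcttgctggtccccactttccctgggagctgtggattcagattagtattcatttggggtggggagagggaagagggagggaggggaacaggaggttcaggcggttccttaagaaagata
Kcnk5: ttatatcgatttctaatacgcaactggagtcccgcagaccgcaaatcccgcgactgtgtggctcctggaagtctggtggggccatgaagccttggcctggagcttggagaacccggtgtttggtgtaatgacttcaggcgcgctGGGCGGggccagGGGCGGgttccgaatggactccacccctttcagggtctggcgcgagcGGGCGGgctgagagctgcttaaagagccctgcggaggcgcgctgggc
Kcnk1: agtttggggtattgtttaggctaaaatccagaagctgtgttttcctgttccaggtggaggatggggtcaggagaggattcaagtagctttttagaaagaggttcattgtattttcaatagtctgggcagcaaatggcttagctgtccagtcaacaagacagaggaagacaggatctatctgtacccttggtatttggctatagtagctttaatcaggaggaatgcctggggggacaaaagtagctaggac
Kcnip2: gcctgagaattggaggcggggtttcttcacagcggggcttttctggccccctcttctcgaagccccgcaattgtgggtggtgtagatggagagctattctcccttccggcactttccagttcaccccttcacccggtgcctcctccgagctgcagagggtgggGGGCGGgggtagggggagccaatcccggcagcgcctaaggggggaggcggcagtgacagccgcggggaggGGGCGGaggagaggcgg
Kcnj15, which fell, held 1 CpG at 53.2% GC, and Kcnk5, which also fell, held 19 CpG at 62.8% GC. Kcnk1, which rose, held no CpG at 44.4% GC, and Kcnip2, which rose, held 15 CpG at 66.8% GC. The median over all 32851 promoter windows was 6 CpG.

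Motifs were searched on both strands in the 92 windows of the 67 genes that have an entry. They were the core of the HNF4A site (CAAAGTCCA), a half-site of HNF1 (GTTAAT), the AP-1 site (TGANTCA), the TATA box (TATAAA) and the GC box (GGGCGG), and matches may overlap one another. The GC box was present in 44.6% of these windows and in 32.7% of all windows, the HNF1 half-site in 4.35% and 6.43%, the AP-1 site in 4.35% and 6.75%, and the TATA box in 3.26% and 12.4%. The HNF4A core was in none of the windows of channel genes and in 0.384% of all. Kcnk5 held GC boxes at -106 to -101, -94 to -89 and -47 to -42 from the start, and Kcnip2 at -87 to -82 and -17 to -12. The windows of Kcnj15 and Kcnk1 held no match to these 5 motifs. A match is a description of letters and not a site that was shown to be bound.

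The channel genes past the threshold lay on 7 chromosomes, with Kcnk1 and Kcnu1 both on chromosome 8. Only channel genes that follow one another in chromosome order were paired. Within 200 kb of each other lay 9 such pairs, and both genes were tested in 1 of them, Kcnj16 and Kcnj2. Pairs with another channel gene between them, such as Kcna5 and Kcna6 with Kcna1 between, were not counted. Kcnk5 lies 79566 bases from Kcnk16, which had no read in any library, and Kcne1 lies 47852 bases from Kcne2, which had a level of 0.0341 TPM. In both of these pairs the second gene was at or near 0.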

How the data were processed

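Whole kidney mRNA was sequenced from 4 Control and 4 cKO mice, from 500 ng of RNA with a stranded kit per the labels' protocols. The authors deposited counts, that is unscaled whole numbers of reads for each Ensembl gene. Per the submitters' processing notes, the authors used cutadapt 1.3, STAR 2.4.0g and HTSeq 0.6.1 on GRCm38; which annotation release and strand setting they took is not given in the sources used here. Lines that name no gene held 39.69% to 56.19% of each file and were kept out. GENCODE vM21 gave symbols, positions and exonic lengths for 46005 of 46517 identifiers.

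Counts were tested on all genes with edgeR 4.0.16 in R 4.3.3 (filterByExpr with minimum count 10 and total 15, TMM factors, quasi-likelihood F-test, group as the only term), with Benjamini-Hochberg adjustment over 15382 genes and a threshold of 0.05. The common biological coefficient of variation was 0.386, so the spread between mice outweighed counting error at the well-counted genes; at genes with few reads per library, such as Kcnu1 and Kcnj12, counting error is of the same order. A fold change is log2 of cKO over Control. CPM are TMM-scaled; TPM were computed from counts and exonic length. Intervals and limits from counts of 0 use 3 reads and cover counting error only. The test was tried on simulated data first. Alternatives were RLE, upper-quartile and no scaling factors, other filters, removal of a length trend within each library (lowess span 0.3), DESeq2 1.42.0, limma-voom 3.58.1, and libraries left out.

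The channel genes, the lists and the tests were chosen with earlier results of these data known, so counts over them are descriptions. Named in the text are genes with an adjusted p below 0.1, the 12 of highest mean TPM, the tested gene of highest TPM in each family, and the 2 partner genes of smallest p in each list; others are said to have been chosen after their values were seen. A few genes the rule selects are not reported here. Groups came from the genotype label. Promoter windows came from RefSeq entries; 25 genes had none.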

Additional observations from a re-analysis of the deposited data

Results flagged for a closer look

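The values of 25 named channel genes were compared with the other libraries of their group, which made 50 groups of 4. In 2 of them a library lay apart from its group by Dixon's 95% criterion, and both times this was the Control library C11, as its highest value. Kcnj16 stood at 734 CPM in C11, with the other Control libraries at 568 to 591 CPM. Kcnu1 stood at 0.642 CPM, against 0.241 to 0.304 CPM. Chance places about 1 in 20 groups past this criterion, and the 2 groups share 1 library and are not independent. C11 was the Control library that favoured long transcripts most. Without C11, Kcnu1 still passed the test.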

How the results depend on the processing

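Of the 8 channel genes past the threshold, Kcnj15, Kcnk1 and Kcnu1 kept their direction and their call under all alternatives run, as did Kcnj12 wherever it was tested. Kcnj12 was not tested under the filter at a mean of at least 1 CPM. Only 1 of 4 Control libraries for Kcnu1 and 1 of 4 cKO libraries for Kcnj12 reached the minimum count. Both were thus tested through the group where they are high, and their kept calls do not remove that limit. The ranges of log2 fold change were -2.23 to -1.40 for Kcnj15, 1.02 to 2.08 for Kcnk1, 2.07 to 2.67 for Kcnu1 and -2.90 to -1.90 for Kcnj12. The calls of Kcnk2, Kcnip2, Kcne1l and Kcnk5 were lost where the report says so, without a change of sign. The number of channel genes higher in cKO was 4 to 7 under the alternatives of scaling, filter, length trend and tool, and 2 to 5 with 1 library left out (3 to 3 for those lower). It was 17 without KO16, KO20 and C11, where 57.8% of all genes passed. DESeq2 called 5 lower instead of 3. The cause was not tested. The median of all genes moved from 0.01 to 0.34 with library totals and to 0.14 with upper-quartile factors.

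Of 448 comparisons of single genes with their reported value, 393 stayed on the same side of the threshold with the same sign, 13 passed newly, 17 no longer passed and 25 turned sign. None of the genes that turned sign had passed the test. With upper-quartile factors, Kcnj16 was 0.04, Kcns3 0.09 and Kcna5 0.11. With library totals, Kcne4 was 0.23, Kcnj16 0.26, Kcnj8 0.05, Kcns3 0.31 and Kcna5 0.29. Without KO16 and KO20, Kcne4 was 0.06, Kcnj10 0.10 and Kcnj16 0.12. With C11 also left out, Kcne4 was 0.03, Kcnj10 0.38, Kcnj16 0.18 and Kcnd3 0.15. With 1 library left out, values ran from -0.31 to 0.07 for Kcne4, -0.04 to 0.65 for Kcnq1, -0.24 to 0.03 for Kcnj16, -0.18 to 0.13 for Kcns3 and -0.15 to 0.05 for Kcna5. The causes of these turns were not tested.

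No paired analysis was possible because the labels give no litter or pairing of the animals, although the Control mice were littermates. Depth limits the 39 genes with reads below the filter, of which Kcnj14 and Kcnj4 passed when the filter was dropped, and the 8 without a read, for which a difference was not detectable. With 4 mice a group, genes with estimates as small as that of Kcnj16 cannot be called equal.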
